A study of Mus musculus with 147 samples.

Results

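The genes described here make up the acidifying and degrading machinery of the lysosome: 14 subunits of the proton pump (V-ATPase) and its 2 accessory proteins, 6 proteins of the lysosomal membrane, 8 proteins of the lumen (acid hydrolases and their helpers) and Tfeb, the transcription factor that drives many of them. The 31 genes were taken as a fixed list of symbols, with the cathepsins left out, and all 31 were found among the 50686 gene identifiers of the count tables. Transcripts were counted in 147 libraries from mice. The refeeding experiment set a 12 h fast against the same fast with 2 h of food at its end, and each library held 400 sorted cells. Those groups held 8 fasted and 9 refed libraries each of adipose tissue macrophages, brain microglia, colonic macrophages and blood monocytes, 6 and 7 each of pancreatic islet macrophages and Kupffer cells (the macrophages of the liver), and 8 and 8 of peritoneal macrophages. The diet experiment had normal diet, 8 weeks of high-fat diet, and the same high-fat diet with STZ given at week 4 (streptozotocin, which kills the beta cells that make insulin). It held 4, 4 and 3 libraries in that order for islet macrophages (400 cells each), 5, 4 and 5 for peritoneal macrophages (100000 cells each) and 4, 4 and 4 for microglia (5000 cells each). The sources used here give no strain, sex, age or genetic change.

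The V-ATPase has a membrane-embedded V0 ring, which carries protons into the lysosome, and a cytosolic V1 head, which burns ATP to turn the ring. The acid lumen keeps hydrolases active, and the membrane proteins shield the membrane itself and carry the products of digestion out. In fed cells the kinase complex mTORC1 keeps TFEB in the cytoplasm, and on starvation TFEB enters the nucleus and binds short sites known as CLEAR elements near many lysosomal genes. Macrophages are rich in lysosomes because they digest what they engulf.

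Libraries held between 7.92 and 34.5 M counts. Levels are CPM (the count divided by the TMM-scaled library size in M), and differences are log2 values with their standard error (SE) from edgeR's quasi-likelihood fit. "Called" means a p-value under 0.05 after Benjamini-Hochberg adjustment over all genes tested, and p-values measure only the spread between these libraries. The summed markers of adipose tissue, blood monocyte, microglia, Kupffer and peritoneal cells stood above every library of the other populations in all libraries so labelled, whereas those chosen for colonic and islet macrophages did so in 0 of 17 and 0 of 13 libraries of the refeeding experiment and in 0 of 11 islet libraries of the diet experiment. For 4 libraries (islet refed 1_2 and 3, Kupffer refed 1 and 2) the description mentioned just the fast, but title and treatment both gave refeeding, and they were kept as refed. In sorted bulk cells, fewer cells of a type and less RNA per cell cannot be told apart.

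The promoters of the pump and hydrolase genes are shown because they carry the site through which TFEB is known to act. RefSeq promoter windows (GRCm38.p6, 250 bases before to 50 bases after the start) were found for 25 of the 31 genes and not for Atp6v0d2, Atp6v1b2, Atp6v1c1, Atp6v1g1, Atp6v1h and Npc1. The 7-base core of the CLEAR element, TCACGTG, was searched on both strands. It lay in 8 of the 25 windows (32%), against 1160 of 27025 genes with a window (4.29%). The shorter CACGTG lies within it and was found in the windows of the same 8 genes, against 8.09% of all genes, and the longer GTCACGTG, which contains it, was found in 5 (20%), against 2.55%. The copy nearest the start of each gene is printed 5′ to 3′ on the strand of the gene, with the core in capitals.
Atp6v0b, a proteolipid of the V0 ring, chr4:117887331-117887359, minus strand, 19 bases before the start: gggtcggcgcaTCACGTGcgccggtcagg
Atp6v0d1, the stalk subunit of V0, chr8:105566051-105566079, minus strand, 4 bases before: ccctactgcggTCACGTGagacgcggtgc
Atp6v0e, a small V0 subunit, chr17:26676387-26676415, plus strand, 2 bases after: tagcgcgccgaTCACGTGagcctctgttg
Atp6v1a, the catalytic subunit of V1, chr16:44139374-44139402, minus strand, 132 bases before: ttttttttaaaTCACGTGataggcttaac
Gaa, the acid alpha-glucosidase that digests glycogen, chr11:119267811-119267839, plus strand, 141 bases before: tttctgtgcgaTCACGTGtttgactctga
Glb1, the lysosomal beta-galactosidase, chr9:114401018-114401046, plus strand, 49 bases before: ctgcttctgagTCACGTGgcctacagagg
Lamp1, the most familiar protein of the lysosomal membrane, chr8:13159134-13159162, plus strand, 16 bases before: acgtgaccacaTCACGTGcggaacggagc
Mcoln1, the calcium channel of the lysosome, chr8:3500462-3500490, plus strand, 46 bases before: aggcgccccgcTCACGTGaccgcggcgca
Lamp1 held 4 copies of the core in its window, Atp6v0b and Mcoln1 held 2 each, and the other 5 genes held 1 each. The flanks differ from gene to gene around the shared core. A match describes these letters only and does not show that a factor bound there.

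Which lysosomal genes differ between tissue macrophages was read in the fasted libraries of the refeeding experiment, where every library started from the same number of cells. Of the 31 genes, 29 differed among the 7 populations, against 49.4% of 16114 genes tested. The 2 not called were Atp6v0b (adjusted p = 0.279) and Lamp1 (adjusted p = 0.532). Each population was then set against the equally weighted mean of the other 6, in the same fit. Adipose tissue macrophages had 9 members higher and 2 lower (8.42% and 3.43% of all genes). Monocytes had 4 higher and 12 lower (10.4% and 8.66%), and microglia 8 higher and 10 lower (15.4% and 12.3%). Colonic macrophages had 8 higher and 5 lower (15.5% and 2.66%), and islet macrophages 8 higher and 1 lower (8.84% and 5.01%). Kupffer cells had 5 higher and 1 lower (10.4% and 2.4%), and peritoneal macrophages 8 higher and 12 lower (12.4% and 8.57%). Cd63 and Grn were called in all 7 populations, Lipa in 6, and Atp6ap1, Atp6v0b and Lamp1 in none. Atp6v0d2 is counted among the 29 and among the higher members of adipose tissue and colonic macrophages. It passed the count filter mainly through the adipose tissue libraries, so its place in those counts is no support for a difference.

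**Figure D1:**
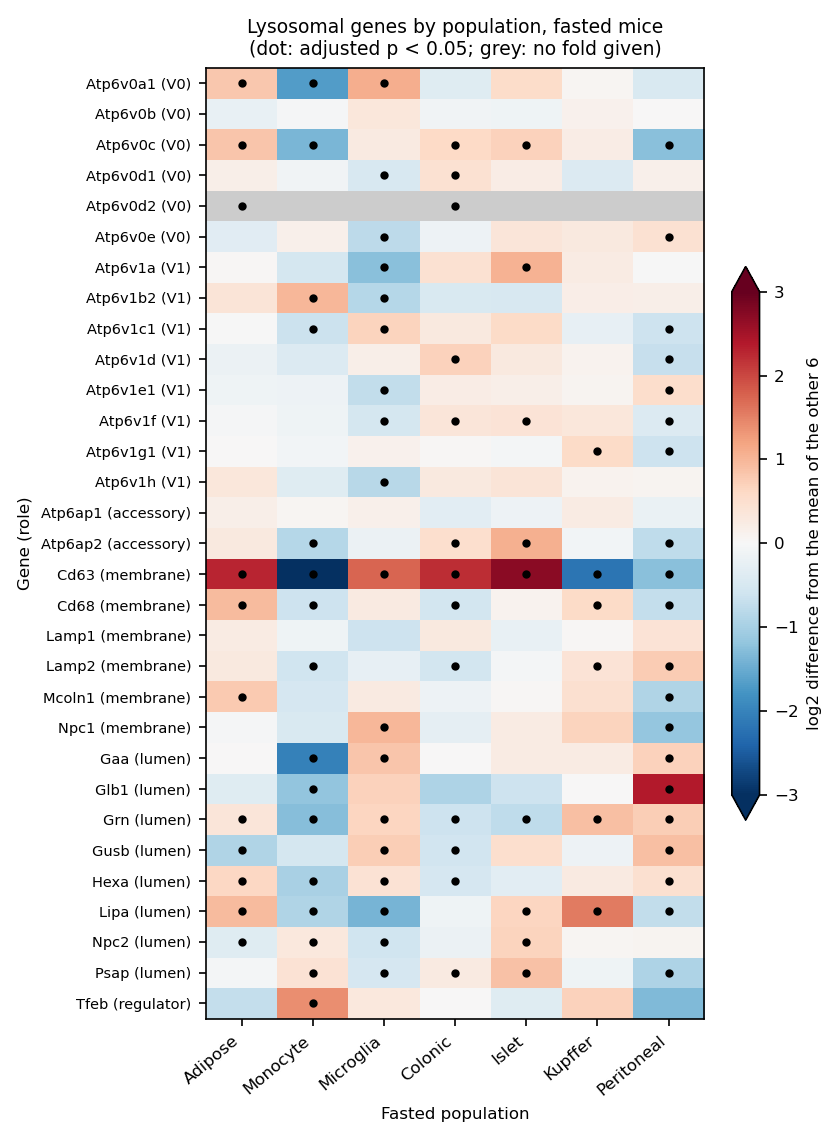
Log2 difference of each of the 31 genes (rows, with their role) in each fasted population (columns) from the mean of the other 6, in color, with dots where the adjusted p was under 0.05. The Cd63 row runs from -5.52 in monocytes to 2.71 in islet macrophages, and Atp6v0d2 is grey because its fitted fold depends on a prior count.

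Cd63, a tetraspanin of late endosomes and lysosomes (chromosome 10, 128900989 to 128912822), had a ratio of 117.5 between its highest and lowest population mean, the largest among members other than Atp6v0d2, which was at 0 in some populations. In islet macrophages its lowest, median and highest fasted libraries were at 575.5, 766.2 and 934.4 CPM, and in adipose tissue macrophages at 409.1, 543.1 and 756.5 CPM. Blood monocytes held 0.0531, 2.55 and 31.5 CPM, and Kupffer cells 26.3, 31.9 and 97.8 CPM. No monocyte library reached any islet, adipose tissue, colonic or microglia library. The log2 difference from the other populations was 2.71 ± 0.36 (SE, adjusted p = 1.01e-07) in islet macrophages, 2.29 ± 0.33 in adipose tissue macrophages, 2.22 ± 0.34 in colonic macrophages and 1.74 ± 0.34 in microglia. It was -5.52 ± 0.58 (adjusted p = 2.84e-10) in monocytes, -2.18 ± 0.53 in Kupffer cells and -1.26 ± 0.43 in peritoneal macrophages, where refed libraries gave -0.79 ± 0.40 and no call (adjusted p = 0.181). Ordered by level, the neighbours islet, adipose tissue, colonic and microglia did not differ beyond their spread, microglia exceeded peritoneal macrophages (adjusted p = 0.000185), and Kupffer cells exceeded monocytes (adjusted p = 0.000289). A pseudogene copy, Cd63-ps, held at most 3.43 CPM as a group mean and could share reads with it.

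Among the hydrolases, Lipa, the acid lipase that frees cholesterol and fatty acids from engulfed lipoproteins (chromosome 19, 34492318 to 34527474), was at 887.1, 1162 and 1392 CPM (lowest, median, highest) in Kupffer cells and at 121.2, 165.7 and 358.4 CPM in microglia, with no overlap. Its difference was 1.55 ± 0.14 in Kupffer cells (adjusted p = 3.23e-12), 0.95 ± 0.13 in adipose tissue macrophages, whose libraries overlapped those of Kupffer cells (difference 0.51 ± 0.20, adjusted p = 0.0893), and -1.40 ± 0.16 in microglia (adjusted p = 2.8e-10). Glb1, which cuts galactose from glycolipids and glycoproteins (chromosome 9, 114401076 to 114474898), was at 236.8, 330.4 and 429 CPM in peritoneal macrophages. Every peritoneal library stood above every fasted library of the other 6 populations, where the highest was a microglia library at 202.3 CPM. Its difference was 2.38 ± 0.28 in peritoneal macrophages (adjusted p = 2.38e-09), and microglia, the next in order, were lower by 1.46 ± 0.44 (adjusted p = 0.0101). Tmppe overlaps its exons on the same strand, so reads of the pair cannot be told apart. Gaa was at 18.9, 45.7 and 91.7 CPM in monocytes and at 148.7, 270.9 and 427.1 CPM in microglia, and the differences were -2.03 ± 0.22 and 0.83 ± 0.18. In refed libraries the microglia difference of Gaa was 0.56 ± 0.27 and was not called (adjusted p = 0.128). Gusb, the beta-glucuronidase, was higher in peritoneal macrophages (0.90 ± 0.18) and lower in adipose tissue macrophages (-0.91 ± 0.21) and colonic macrophages (-0.58 ± 0.20).

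Among the other proteins of the lumen, Psap encodes prosaposin, whose fragments help hydrolases reach sphingolipids, and Grn encodes progranulin, a secreted and lysosomal glycoprotein needed for lysosome function. Psap was at 8956, 11100 and 11890 CPM in islet macrophages and at 3235, 3604 and 3909 CPM in peritoneal macrophages, with no overlap, and the differences were 0.89 ± 0.10 (adjusted p = 7.91e-10) and -0.92 ± 0.10 (adjusted p = 3.42e-10). With limma's voom and library weights the peritoneal difference of Psap was -1.01 and not called (adjusted p = 0.0888). Grn was at 2176, 3173 and 5551 CPM in Kupffer cells and at 889, 958.2 and 1086 CPM in monocytes. Its difference was 0.91 ± 0.11 in Kupffer cells, 0.73 ± 0.10 in peritoneal macrophages, -0.77 ± 0.12 in islet macrophages, -0.61 ± 0.11 in colonic macrophages and -1.28 ± 0.11 in monocytes. With voom the islet and colonic differences of Grn were not called (adjusted p = 0.222 and 0.209). Npc2, the soluble protein that hands cholesterol to NPC1, was higher in monocytes (0.32 ± 0.11) and lower in adipose tissue macrophages (-0.37 ± 0.12), but 3 and 4 of 5 alternatives, refed libraries among them, ended those calls (adjusted p up to 0.233 and 0.263). As a group, the 8 lumen genes had 5 higher and 2 lower in peritoneal macrophages (12.4% and 8.57% of all genes), 4 and 3 in microglia (15.4% and 12.3%), and 2 and 5 in monocytes (10.4% and 8.66%). They had 3 and 1 in islet macrophages (8.84% and 5.01%), 3 and 2 in adipose tissue macrophages (8.42% and 3.43%), 2 and 0 in Kupffer cells (10.4% and 2.4%) and 1 and 3 in colonic macrophages (15.5% and 2.66%). Per kilobase of exon, the mean fasted level over the 7 populations was 2413 CPM for Psap, 782.1 for Cd68, 656.5 for Grn, 376.5 for Hexa and 337 for Lamp1, and 3.74 for Tfeb.

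Of the proton pump, in microglia 5 of 8 V1 genes were lower and 1 was higher, and 2 of 6 V0 genes were lower and 1 was higher (12.3% of all genes lower and 15.4% higher). The difference between the V1 and V0 counts was not tested. Atp6v1a was at 3.91, 122.6 and 151.9 CPM in fasted microglia and at 140.9, 474.9 and 659.7 CPM in fasted islet macrophages. The microglia difference was -1.25 ± 0.28 (adjusted p = 0.000483). The islet difference was 1.03 ± 0.27 (adjusted p = 0.00472) in fasted libraries but -0.05 ± 0.22 in refed libraries. Atp6v1b2, the other subunit of the catalytic ring, was higher in monocytes (1.00 ± 0.15) and lower in microglia (-0.84 ± 0.18), as was Atp6v1h, a regulatory subunit, in microglia (-0.83 ± 0.23). Atp6v1g1, a subunit of the outer stalk, was higher in Kupffer cells (0.57 ± 0.16), though not in refed libraries (0.13 ± 0.16), and Atp6v1d, a subunit of the central stalk, was higher in colonic macrophages (0.69 ± 0.19), a call lost without a count filter (adjusted p = 0.103). In the V0 ring, Atp6v0a1, a proton-path subunit that helps place the pump in a compartment, was at 115.1, 173 and 268.2 CPM in microglia and at 7.15, 34 and 64.5 CPM in monocytes, with no overlap. Its differences were 1.08 ± 0.21 and -1.67 ± 0.26. Atp6v0c, the main proteolipid of the ring, was lower in monocytes (-1.37 ± 0.23) and peritoneal macrophages (-1.25 ± 0.23) and higher in colonic macrophages (0.59 ± 0.20), the last lost with a replicate block (adjusted p = 0.0636) and without a count filter (adjusted p = 0.193). Atp6ap2, an accessory protein also known as the prorenin receptor, was higher in islet macrophages (1.08 ± 0.17).

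The d subunit of V0 has 2 genes, of which Atp6v0d1 is broadly used and Atp6v0d2 is known from osteoclasts and some macrophages. Atp6v0d2 (chromosome 4, 19876841 to 19922605) had counts in 8 of 8 fasted adipose tissue libraries, at 0.208, 27 and 38.5 CPM, and in 9 of 9 refed ones, at 1.1, 17.5 and 35.9 CPM. It had 0 counts in all 8 fasted and 9 refed monocyte libraries and in all 8 and 8 peritoneal libraries, where 3 counts, taken as the floor, would be 0.148 to 0.189 CPM at the median depth. In colonic macrophages 4 of 8 fasted libraries had counts, up to 11.3 CPM, and 4 of 9 refed ones, up to 16.1 CPM. Atp6v0d1 (chromosome 8, 105524465 to 105566047) ran only from 48.3 to 244 CPM over all fasted libraries. Its colonic level was higher (0.45 ± 0.14) and its microglia level lower (-0.48 ± 0.15) than the mean of the others, but no neighbours in its order differed. Per kilobase, Atp6v0d2 made up 10 ± 7.11% (SD, n = 8) of the pair's level in fasted and 6.29 ± 4.08% (SD, n = 9) in refed adipose tissue macrophages. Its mean share was at most 1.29% in any other group of that experiment. In the diet experiment the highest group mean was 2.81%, in islet macrophages with STZ. There 1 of 3 libraries had counts, at 29.5 CPM, above the median of fasted adipose tissue macrophages. The subunit was called higher in adipose tissue and colonic macrophages, and the size of a fitted fold against groups at 0 is not given. It was at or above 1 CPM in 7 of 8 fasted adipose tissue, 3 of 8 colonic, 1 of 6 islet and 1 of 6 Kupffer libraries. It thus passed the count filter mainly through the adipose tissue libraries. Ordered by level, adipose tissue did not differ from colonic macrophages (adjusted p = 0.291), nor colonic from islet macrophages (adjusted p = 0.423). With voom the colonic call was lost (adjusted p = 0.207).

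Among membrane proteins, Cd68, a heavily glycosylated macrophage protein, was at 1375, 1589 and 1953 CPM in adipose tissue macrophages and at 509.1, 586.4 and 780 CPM in peritoneal macrophages. Its difference was 0.95 ± 0.11 in adipose tissue macrophages (adjusted p = 2.78e-09), 0.56 ± 0.13 in Kupffer cells and -0.54 ± 0.12 in colonic macrophages. Lamp2, which shields the membrane and takes part in chaperone-mediated autophagy, was higher in peritoneal macrophages (0.75 ± 0.10) and lower in colonic macrophages (-0.55 ± 0.11). Npc1, which exports cholesterol from the lysosome, was at 60.6, 101.4 and 162.6 CPM in microglia and at 21.9, 28 and 42.2 CPM in peritoneal macrophages. Those differences were 1.00 ± 0.23 and -1.15 ± 0.27, and exons of Npc1 overlap those of genes on the other strand. Tfeb was low throughout, at 18.3, 41.4 and 68.6 CPM in monocytes and at 1, 5.94 and 28.4 CPM in peritoneal macrophages. Only the monocyte difference was called (1.39 ± 0.45, adjusted p = 0.0205, and 0.068 without a count filter), and no neighbours in its order differed.

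**Figure D2:**
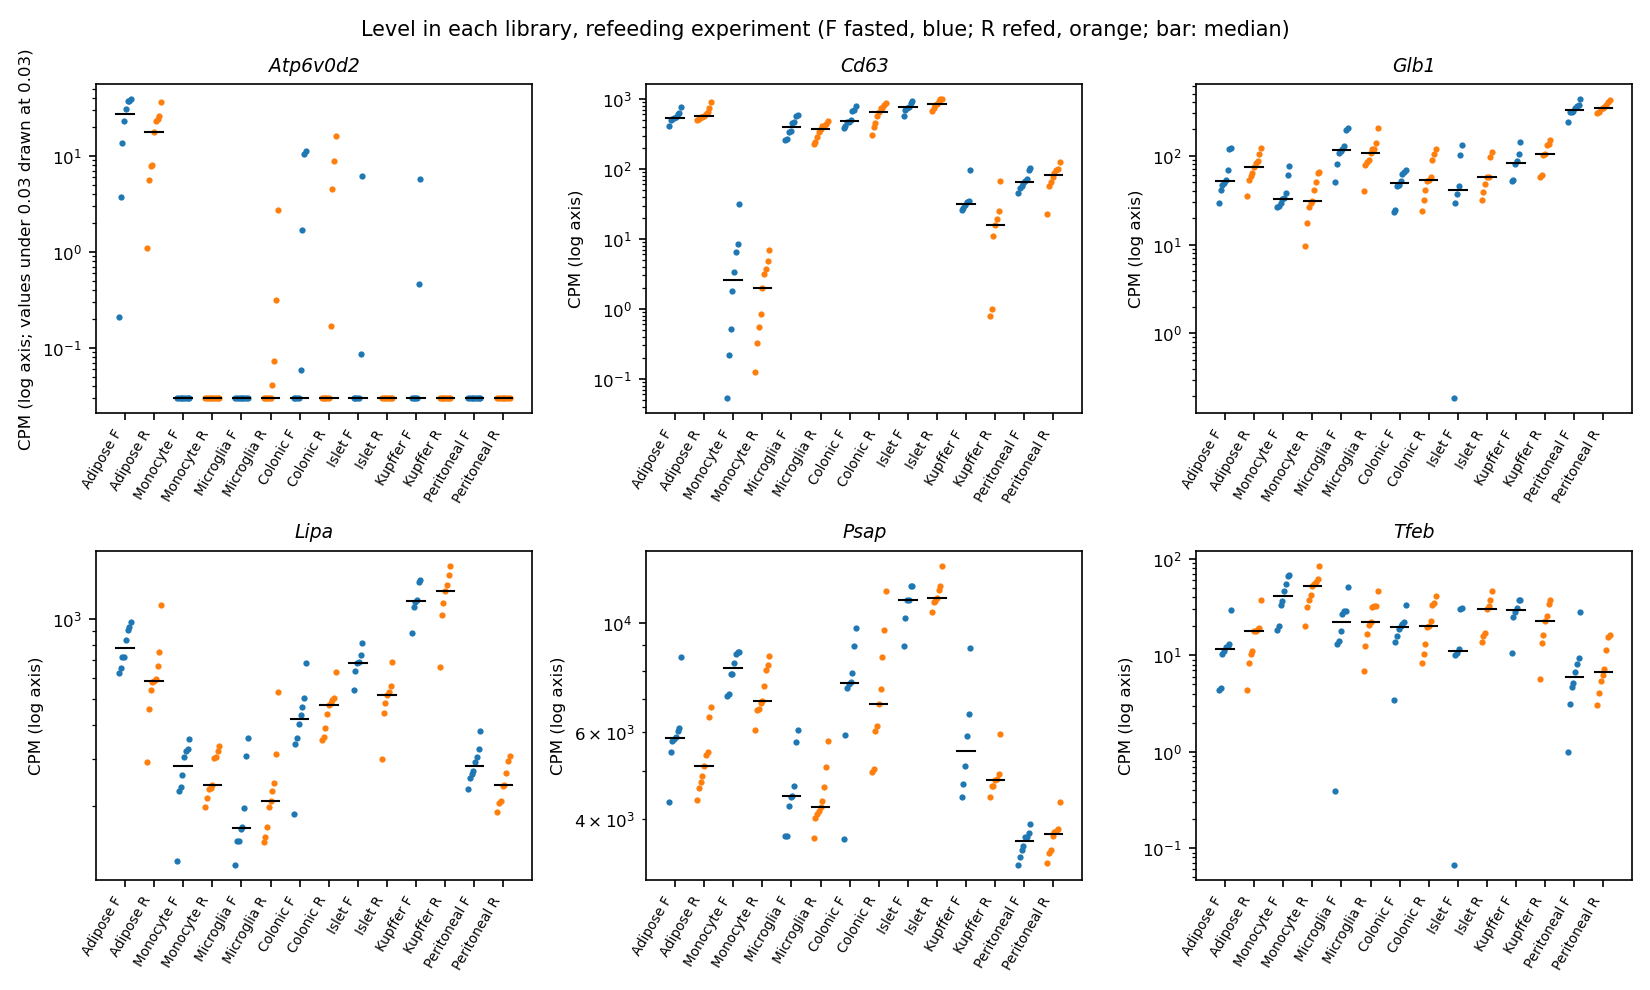
CPM of 6 genes in every library of the refeeding experiment on log axes, fasted in blue and refed in orange, with a bar at the median of each group. Lipa has its highest median in Kupffer cells, Glb1 in peritoneal macrophages and Psap in islet macrophages, while Atp6v0d2 has counts in all libraries of adipose tissue macrophages only.

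Other lysosomal genes were counted from 4 lists. Of 36 further hydrolase genes, 26 differed among fasted populations, as did 18 of 23 tested membrane genes, 6 of 11 tested V-ATPase subunits and assembly factors, and 16 of 19 tested genes of TFEB relatives and mTORC1 on the lysosome, against the same 49.4% of all genes. Acp5, the tartrate-resistant acid phosphatase, was higher in colonic macrophages by 4.98 ± 0.48, in Kupffer cells by 4.47 ± 0.55 and in islet macrophages by 3.085 ± 0.531. It was lower in microglia (-5.37 ± 0.89) and peritoneal macrophages (-4.66 ± 0.85). Tcirg1, the a3 subunit of V0, was lower in peritoneal macrophages by 1.61 on the log2 scale (-1.61 ± 0.15), and Rogdi, a subunit of the complex that reassembles the pump, was lower there as well (-3.10 ± 0.24) and higher in microglia (1.98 ± 0.16). Of the 36 hydrolase genes, 2 were higher and 17 lower in monocytes (10.4% and 8.66% of all genes), 15 and 6 in microglia (15.4% and 12.3%), and 12 and 3 in Kupffer cells (10.4% and 2.4%). The counts were 7 and 10 in peritoneal macrophages (12.4% and 8.57%), 6 and 5 in colonic macrophages (15.5% and 2.66%), 5 and 3 in islet macrophages (8.84% and 5.01%) and 4 and 3 in adipose tissue macrophages (8.42% and 3.43%).

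The same population differences could be read in normal-diet mice of the diet experiment, though those libraries started from different numbers of cells. Peritoneal against islet macrophages gave 2 of 30 members higher and 7 lower (4.46% and 6.86% of all genes). Glb1 (3.86 ± 0.65) and Grn (1.49 ± 0.26) were higher in peritoneal macrophages, and Cd63 (-3.93 ± 0.39), Npc1 (-2.20 ± 0.44), Atp6ap2 (-1.80 ± 0.25), Atp6v1c1 (-1.70 ± 0.29), Psap (-1.41 ± 0.22), Atp6v1a (-1.24 ± 0.27) and Lipa (-1.19 ± 0.28) were lower. Without any 1 library, between 2 and 9 members were called, with 2 left without the islet or the peritoneal normal-diet replicate 1, 3 without replicate 4 of either, and 4 or 5 without replicate 5. In fasted mice the same contrast gave 3.86 against 2.57 for Glb1, 1.49 against 1.29 for Grn and -3.93 against -3.40 for Cd63, with the normal-diet value first. Of the 30 genes, 28 had the same sign in both experiments, against 76.4% of 12253 genes. The 8 members called in both had the same sign, as did 100% of the 1093 genes called in both. Microglia against peritoneal macrophages gave 6 members higher and 14 lower (19.7% and 22.2% of all genes). There 22 of 30 had the same sign as in fasted mice, against 77% of 13160 genes. All 15 called in both had the same sign, as did 99.7% of the 2838 genes called in both. Same signs among called genes thus do not set the members apart from all genes. Every normal-diet islet library came from a numbered cohort that also held a peritoneal one, and cohort entered that fit. The peritoneal normal-diet replicate 2 had no islet library in its cohort and so added nothing to that contrast. Microglia shared no cohort with peritoneal macrophages, so for that pair cohort and population cannot be told apart.

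Whether a short refeeding after a fast shifts these genes was tested within each population. No member was called in any of the 7. The share of all genes called was 0% in adipose tissue macrophages, 0% in monocytes, 0% in microglia, 0% in colonic macrophages, 0% in islet macrophages, 0% in Kupffer cells and 0.432% (49 of 11331) in peritoneal macrophages. DESeq2, voom, another scaling (RLE) and a replicate block also called 0 members. Without a filter on low counts 1 was called in Kupffer cells and 1 in peritoneal macrophages, in both cases Lamp1. Its unfiltered difference was 0.86 ± 0.19 in Kupffer cells, against 0.85 ± 0.37 with the filter. In peritoneal macrophages it was -0.50 ± 0.12, the opposite direction. The share of all genes called without the filter is not given here. At an unadjusted p under 0.05, 5 of 31 members passed in adipose tissue macrophages (5.16% of all genes), 0 of 30 in monocytes (2.65%), 1 in microglia (2.59%), 3 in colonic macrophages (2.59%), 5 in islet macrophages (2.42%), 2 in Kupffer cells (3.27%) and 3 in peritoneal macrophages (11%). The median member difference ran from -0.05 in microglia to 0.17 in colonic macrophages, where 26 of 30 members were above 0, and the median over all genes was within 0.05 of 0 in each population. In simulated colonic counts, changes were placed in genes drawn at random from all that passed the count filter. The test recovered 8.79% of 2-fold and 32.6% of 4-fold changes, so most changes of that size in such genes would not have been called. Recovery of changes in the members, whose median SE was 0.20 in colonic macrophages, was not simulated.

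**Figure D3:**
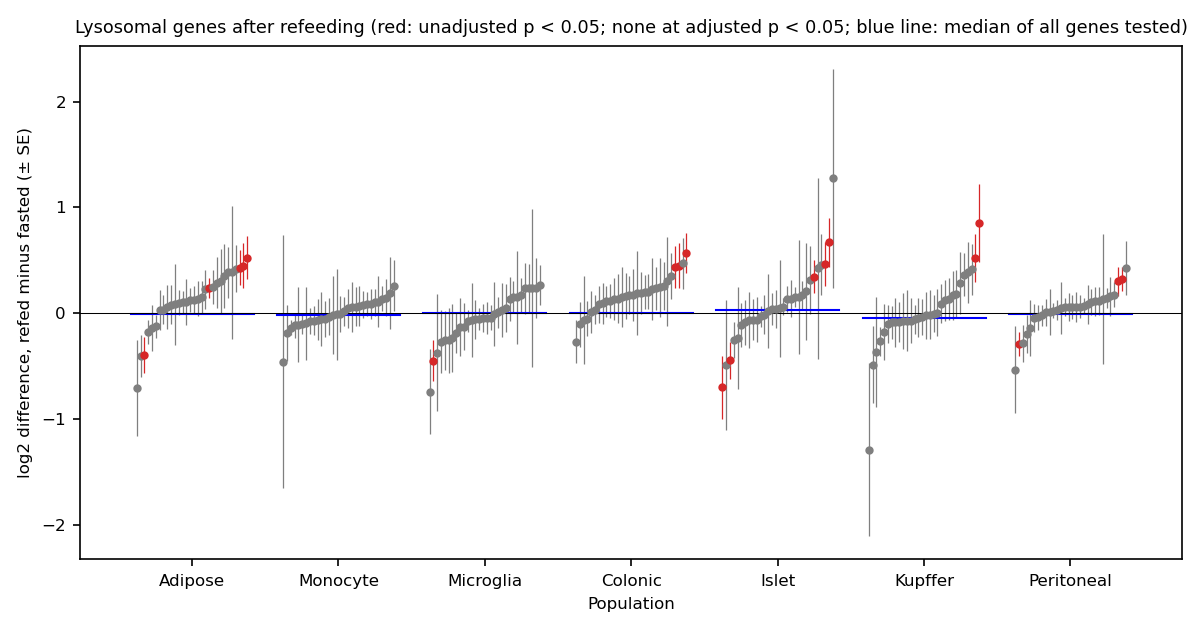
Refed minus fasted log2 difference of each member in the 7 populations, 1 point per gene without Atp6v0d2 and a line of 1 SE either way, with red points at an unadjusted p under 0.05 and a blue line at the median of all genes tested. The medians lie near 0 and no point passed the adjusted p.

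Among the proton pump genes with small p, most had higher fitted values after refeeding, and none was called. In adipose tissue macrophages Atp6v0b was at 89.7, 186.6 and 205.5 CPM in fasted and at 181.1, 231.2 and 263 CPM in refed libraries, a difference of 0.43 ± 0.16 (adjusted p = 0.852). In islet macrophages Atp6v1g1 was at 74.4, 90.7 and 155.8 CPM in fasted and at 117.99, 167.3 and 264.7 CPM in refed libraries, a difference of 0.67 ± 0.23 (adjusted p = 1). The groups overlapped in both cases. Atp6v1a went the other way in islet macrophages, at 140.9, 474.9 and 659.7 CPM in fasted and 121.8, 176.4 and 463.7 CPM in refed libraries, with overlap (-0.70 ± 0.30, adjusted p = 1). In colonic macrophages Atp6v1a was at 173.7, 280.6 and 403.1 CPM in fasted and 172.8, 428.1 and 764.2 CPM in refed libraries (0.57 ± 0.19), and Atp6v1h had a difference of 0.43 ± 0.20 (both adjusted p = 0.9997). In peritoneal macrophages Atp6v0d1 was at 110.8, 132.6 and 169.7 CPM in fasted and at 147, 176.2 and 210.7 CPM in refed libraries, higher in all 4 cohorts, with a difference of 0.32 ± 0.11 (adjusted p = 0.246). Kupffer cells had Lamp1 at 0.85 ± 0.37 and Atp6v1b2 at 0.52 ± 0.23. Microglia had Atp6v1d lower after refeeding, at -0.74 ± 0.40 (unadjusted p = 0.082).

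Lipa had the opposite sign in 3 of the 7 populations at an unadjusted p under 0.05. Fasted adipose tissue macrophages held 629.2, 776.1 and 973 CPM and refed ones 292.4, 585.9 and 1120 CPM, a difference of -0.40 ± 0.17 (adjusted p = 0.917). Islet macrophages held 541, 685.4 and 812 CPM when fasted and 300, 518.5 and 690.6 CPM when refed (-0.45 ± 0.17, adjusted p = 1). Peritoneal macrophages held 232.4, 281.3 and 382.5 CPM when fasted and 190.3, 239.1 and 308.4 CPM when refed (-0.29 ± 0.11, adjusted p = 0.342). The groups overlapped in each. The refed cohort mean lay below the fasted one in 4 of 4 cohorts of adipose tissue and peritoneal macrophages and in 3 of 4 of islet macrophages. In the other populations the Lipa difference was -0.01 ± 0.17 in monocytes, 0.00 in Kupffer cells to 2 decimals, 0.13 ± 0.20 in colonic macrophages and 0.24 ± 0.28 in microglia, and a test of whether the effect differs among populations gave an adjusted p of 0.37. Other small p-values belonged to Gusb in adipose tissue macrophages (0.52 ± 0.21) and Gaa in microglia (-0.45 ± 0.19). In monocytes the smallest p belonged to Psap (-0.14 ± 0.07) and Hexa (0.14 ± 0.12).

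Across all 7 populations in 1 fit, the refeeding effect differed for 1 of 31 members, against 10.1% of 18640 genes, and 1 member had an unadjusted p under 0.05, against 22.8% of genes. That member was Atp6v0d2 (adjusted p = 0.0274). Outside adipose tissue and colonic macrophages its counts came from few libraries: 2 of 6 fasted and 0 of 7 refed islet libraries (up to 6.14 CPM), 2 of 6 fasted and 0 of 7 refed Kupffer libraries (up to 5.69 CPM), and 0 of 8 fasted and 4 of 9 refed microglia libraries (up to 2.72 CPM). Single libraries decide the call. Without the islet fasted library 5_6 the adjusted p was 0.0591, without the microglia refed library 8 it was 0.0595, and without the Kupffer fasted library 8 it was 0.0418. Voom gave 0.663 for Atp6v0d2 and called Grn in its place (adjusted p = 0.00685), for which the edgeR fit gave an adjusted p of 1.

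In islet macrophages, 10 members had higher fitted values with STZ than on normal diet at an unadjusted p under 0.05, and none of them was called by edgeR. Each of the 3 diet contrasts in islet macrophages called 0 members and 0% of 12406 genes: 0% for high-fat against normal, 0% for STZ against normal and 0% for STZ against high-fat. At an unadjusted p under 0.05, 10 of 30 members passed for STZ against normal, all higher, where 5.66% of genes passed and 2.6% passed as higher. For STZ against high-fat diet 6 passed, all higher (4.99% of genes, 1.46% as higher), and for high-fat against normal diet 0 passed (2.42%). The STZ libraries are the same in the first 2 counts, so these are not independent. DESeq2 called 4 members for STZ against normal diet (Psap, Grn, Lipa and Lamp2) and 5 against high-fat diet (the same with Cd63), among 594 and 374 genes called in all. Voom called 0 in both. In simulated counts of STZ against normal diet edgeR recovered 1.06% of 2-fold and 10.5% of 4-fold changes placed in randomly drawn genes. Recovery in the members, whose median SE was 0.22 in that contrast, was not simulated.

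Grn was at 1351, 1610, 1352 and 1184 CPM in the 4 normal-diet libraries, at 1649, 2104, 1422 and 1025 CPM on high-fat diet, and at 2427, 2183 and 2088 CPM with STZ. All STZ libraries lay above all normal-diet libraries, and 1 high-fat library reached into their range. The difference of STZ from normal diet was 0.73 ± 0.15 (adjusted p = 0.418). Psap was at 9763, 9788, 9491 and 8246 CPM on normal diet, at 9248, 12889, 8073 and 7513 CPM on high-fat diet, and at 14275, 12809 and 14345 CPM with STZ, with the same separation and a difference of 0.58 ± 0.13 (adjusted p = 0.575). Glb1 was at 13.2, 12.7, 52.6 and 85.8 CPM on normal diet, at 22.2, 67.3, 47.1 and 58.5 CPM on high-fat diet and at 123.8, 142.8 and 110.7 CPM with STZ, above every other library (1.56 ± 0.54). Hexa, the alpha subunit of beta-hexosaminidase, had 1133, 1011 and 1289 CPM with STZ against 685.2 to 877.6 CPM on normal diet (0.59 ± 0.20). On high-fat diet it was at 613.5 to 1316 CPM, and STZ was higher than high-fat diet in 2 of 3 cohorts. Lipa at 841.8, 911.3 and 708.8 CPM with STZ overlapped the normal-diet range of 510 to 920 CPM (0.51 ± 0.16), and against high-fat diet its difference was 0.75 ± 0.16 (adjusted p = 0.684). Lamp2 (0.60 ± 0.16), Atp6v1e1, Npc2, Cd63 and Cd68 made up the rest of the 10, of which 1 is a pump subunit and 1 (Glb1) holds the TCACGTG core. Normal-diet and STZ libraries shared 3 cohorts, and Grn, Psap, Lipa and Lamp2 were higher with STZ in 3 of 3.

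**Figure D4:**
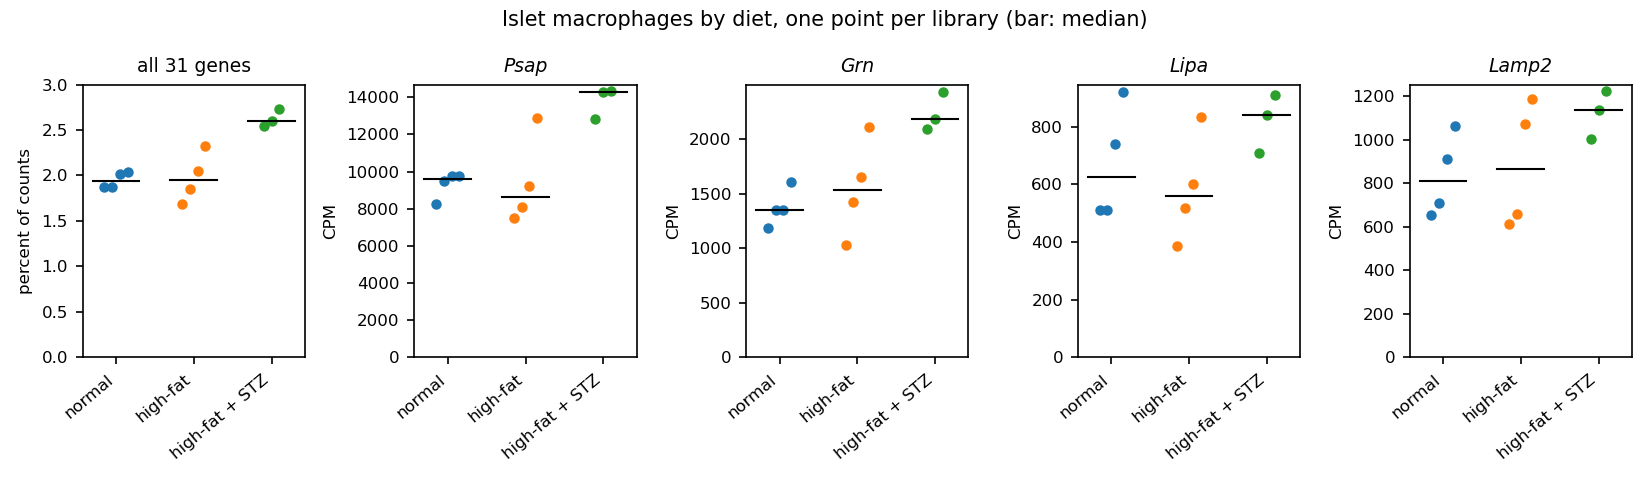
Islet macrophages on normal diet, high-fat diet and high-fat diet with STZ, 1 point per library with a bar at the median, for the summed share of the 31 genes in percent of counts and for Psap, Grn, Lipa and Lamp2 in CPM. The share is 2.54 to 2.73% in the 3 STZ libraries and 1.87 to 2.03% in the 4 normal-diet libraries.

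Summed, the 31 genes held 2.54 to 2.73% of counts in the 3 STZ libraries, 1.87 to 2.03% on normal diet and 1.69 to 2.32% on high-fat diet. Summed by role in CPM, the lumen genes, Psap among them, were at 20370 ± 929.2 (SD, n = 3) with STZ and 13860 ± 1015 (SD, n = 4) on normal diet. The V0 genes were at 823.8 ± 39.4 and 809.6 ± 74.4, the V1 genes at 1838 ± 191.7 and 1804 ± 242.9, and the accessory genes at 1357 ± 263.3 and 1315 ± 202.9, differences within the spread of libraries. The median difference of STZ from normal diet was 0.26 over members and -0.15 over all genes, and it was 0.19 and -0.29 against high-fat diet. Other values moved with this group. The islet-cell genes that the sort could carry summed to 1868 to 3609 CPM with STZ, 1879 to 6109 CPM on normal diet and 3451 to 6207 CPM on high-fat diet. Plasma and B cell genes reached 7721 CPM in 1 normal-diet and 14290 CPM in 1 high-fat library and at most 143.4 CPM with STZ. Genes detected per library ran from 9864 to 12441 with STZ, 10828 to 13314 on normal diet and 12036 to 14536 on high-fat diet. Their part in the result was not tested. Among the 36 further hydrolase genes, 5 had an unadjusted p under 0.05 for STZ against normal diet and 0 were called, with a median difference of 0.41.

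In peritoneal macrophages 0 of 31 members were called for any diet contrast, against 0% of 13225 genes for high-fat against normal diet, 1.29% for STZ against normal diet and 0% for STZ against high-fat diet. Unadjusted, 0 passed for high-fat against normal diet (3.54% of genes), 9 for STZ against normal diet (19.6%) and 2 for STZ against high-fat diet (8.08%). The 9 split into 6 higher (9.86% of genes) and 3 lower (9.78%). Psap was at 3414, 3898, 4266, 3532 and 3464 CPM on normal diet and at 5053, 4507, 5234, 4899 and 4512 CPM with STZ, with no overlap (0.37 ± 0.14, adjusted p = 0.193). Npc1 was at 26.4 to 43.2 CPM on normal diet and 42 to 50.4 CPM with STZ (0.48 ± 0.15, adjusted p = 0.117), and Atp6v0a1 at 13.3 to 70.2 and 66.2 to 125.2 CPM (1.03 ± 0.33, adjusted p = 0.141). Both overlapped by 1 library. Against high-fat diet, Glb1 (-0.63 ± 0.22) and Cd63 (-0.94 ± 0.33) were the 2 that passed unadjusted, both lower.

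One normal-diet peritoneal library, replicate 3, stood apart in several members. It held 7279 CPM of Grn against 2973 to 3598 in the other 4, 2675 CPM of Hexa against 1197 to 1298, and 1881 CPM of Cd68 against 715.3 to 834.3. Without it, Psap (0.41 ± 0.09, adjusted p = 0.0405) and Atp6ap2 (0.44 ± 0.09, adjusted p = 0.0367) were called, and they were also called without the STZ library of the same cohort (adjusted p = 0.0369 and 0.0346). DESeq2 called Psap, Atp6v0a1 and Npc1, and voom called these with Atp6ap2. Voom also called Glb1, Psap and Cd63 for STZ against high-fat diet. The share of all genes called in these alternatives is not given here, so the member calls are not set against a background. In the edgeR fit 19.6% of all genes passed unadjusted for STZ against normal diet. Monocyte marker genes summed to 647.5 to 1905 CPM with STZ and 184.4 to 494.6 CPM on normal diet, and peritoneal marker genes to 10200 to 23120 and 18670 to 23650 CPM. Their part in these differences was not tested. Rragd, a Rag GTPase through which amino acids activate mTORC1, was the only gene of the 4 lysosomal lists called in a refeeding or diet contrast within a population, and it was higher with STZ than on normal diet (adjusted p = 0.0111). In the tests of whether an effect differs among populations, 2 of 13 tested genes of the V-ATPase list were called for refeeding, against 10.1% of 18640 genes. For STZ against normal diet 1 of 36 hydrolase genes was called, against 0.754% of 17230 genes. Counts this small do not set the lists apart from all genes.

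Microglia had 0 of 30 members called in each contrast, against 0% of 13972 genes for high-fat against normal diet, 0% for STZ against normal diet and 0% for STZ against high-fat diet. Unadjusted, 1, 1 and 2 members passed in that order (3.16%, 2.15% and 4.77% of genes). Lamp1 had the largest differences, -1.18 ± 0.54 for high-fat against normal diet and 1.46 ± 0.55 for STZ against high-fat diet. Without a count filter, where the share of all genes called is not given here, it was called in both. Its libraries held 747.8, 825.9, 820 and 232.9 CPM on normal diet, 230.5, 130.9, 154.4 and 717.3 CPM on high-fat diet, and 892.3, 171.3, 792.1 and 837 CPM with STZ. Each group had both high and low libraries, and the groups overlapped. With cohort as a term, 1 STZ library that was alone in its cohort added nothing to either STZ contrast. The fitted differences with STZ thus rest on the other STZ libraries.

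Whether a diet effect differs among the 3 populations was tested in 1 fit, and 0 members were called, against 0.308% of 17230 genes for high-fat against normal diet, 0.754% for STZ against normal diet and 0.708% for STZ against high-fat diet. Unadjusted, 0, 9 and 5 members passed in that order (7.78%, 11.1% and 11.1% of genes). Glb1 (adjusted p = 0.0737) and Grn (adjusted p = 0.0926) had the smallest p for STZ against normal diet. With STZ, Glb1 had a fitted difference of 1.56 ± 0.54 in islet and -0.57 ± 0.21 in peritoneal macrophages, and voom gave an adjusted p of 1 for both genes. An effect seen in islet macrophages alone is therefore not shown to differ from the other populations.

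Lamp1 and Lamp2, the 2 most abundant glycoproteins of the lysosomal membrane, differed in how far libraries of a group agreed. Lamp1 ran from 53.8 to 1097 CPM within refed microglia, a 20.4-fold range, and from 100.97 to 1313 CPM within fasted islet macrophages. The narrowest range was 1.69-fold in fasted colonic macrophages. The SD within groups was 0.97 on the log2 scale in the refeeding experiment and 1.27 in the diet experiment for Lamp1, above 95.4% and 100% of the 500 genes nearest in mean level. For Lamp2 it was 0.28 and 0.29, above 11.6% and 37%. In diet libraries from 100000 peritoneal cells Lamp1 ran from 153.8 to 1414 CPM on normal diet. Grtp1 overlaps exons of Lamp1 (chromosome 8, 13159161 to 13175338) on the other strand, and its part was not tested.

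**Figure D5:**
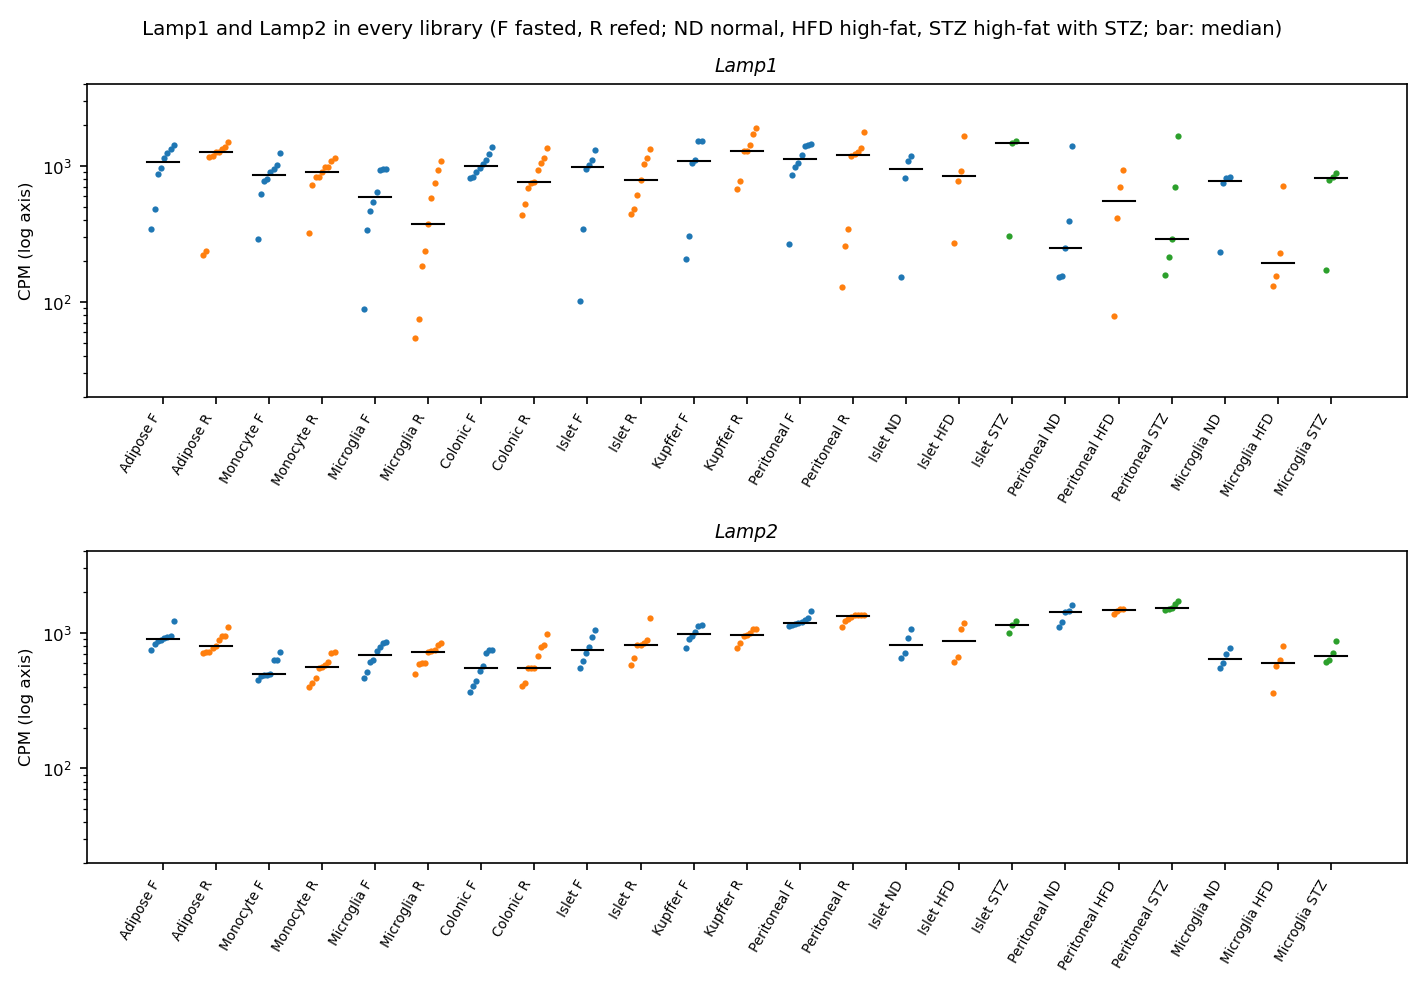
CPM of Lamp1 and Lamp2 in every library of both experiments on log axes, with a bar at the median of each group. Lamp1 libraries of the same group spread over up to 20.4-fold, whereas Lamp2 libraries lie close together.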

How the data were processed

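The authors deposited raw counts of reads per gene, with no normalization, in 110 libraries of the refeeding and 37 of the diet experiment. Sorted cells were lysed and sequenced from polyA RNA by Smart-seq2, per the labels' protocols. Trimmomatic 0.36, STAR 2.5.1a, featureCounts and mm10 are named in the submitters' processing notes, and the annotation release, strand setting and treatment of multiply mapped reads were not given in the sources used here. Depth was 7.92 to 27.3 M counts (median 16.1 M) and 11.3 to 34.5 M (median 15.7 M), and no libraries were identical.

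Counts were analysed with edgeR 4.0.16 (R 4.3.3): filterByExpr (count of 10, total of 15), TMM scaling, quasi-likelihood tests with cohort as a term, and Benjamini-Hochberg adjustment over all genes tested. Alternatives were DESeq2 1.42.0, voom with library weights (limma 3.58.1), RLE scaling, no count filter, a replicate block and leaving out libraries. The members and lists were chosen with earlier results of these data known. Members were named by rule: those called, or else the 2 of smallest p, in a refeeding or diet comparison, up to 4 called higher and 4 lower of largest difference per population, the Atp6v0d pair and Tfeb, and the 2 largest called list genes per direction. Others were named after their values were seen. One gene of the further lists is not reported here. Positions are from GENCODE M21 (mm10). The test was tried on simulated data with known changes in randomly drawn genes. For islet macrophages against the other 6 populations, it recovered 10 of 97 2-fold and 44 of 95 4-fold changes. That case also gave 14 false calls among 15405 genes, so some population calls may be false. The simulated colonic refeeding and islet STZ cases gave 0 false calls. Pairing was checked by correlating deviations from group means: same-numbered fasted and refed libraries gave a mean r of -0.003 to 0.068, while under the diets the number is the cohort for islet and peritoneal macrophages, not for microglia.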

Additional observations from a re-analysis of the deposited data

Results flagged for a closer look

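Single libraries stood far from the rest of their group for 3 measures, by the gap to the nearest library as a share of the whole range. The summed share of the 31 genes was 1.56% of counts in the lowest refed Kupffer library. Atp6v0d1 reached 213.4 CPM in 1 refed microglia library and 128 CPM in 1 microglia library on high-fat diet. Tfeb reached 29.3 CPM in 1 fasted and 37.3 CPM in 1 refed library of adipose tissue macrophages and 28.4 CPM in 1 fasted peritoneal library. Chance marks about 1 in 20 groups, and 6 of 66 groups tested (9.09%) were marked here. The effect of refeeding on Atp6v0d2 differed among populations by the interaction test (adjusted p = 0.0274), on counts from few libraries.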

How the results depend on the processing

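Members named for their calls or smallest p kept their direction under every alternative run except Atp6v1a in fasted islet macrophages, which was -0.052 with refed libraries. Other named results, among them Atp6v0d1 by population and the genes of the further lists, were not included in that check. Without a count filter, 1 member (Lamp1) was called for refeeding in Kupffer cells, 1 for refeeding in peritoneal macrophages, 1 for high-fat against normal diet in microglia and 1 for STZ against high-fat diet in microglia, where the count was 0. DESeq2 called 4 members for STZ against normal and 5 for STZ against high-fat diet in islet macrophages and 3 for STZ against normal diet in peritoneal macrophages, and voom called 4 and 3 in peritoneal macrophages for STZ against normal and against high-fat diet. The peritoneal counts and those without a count filter are given without the share of all genes called. Leaving out 1 library gave 0 to 2 members for STZ against normal diet in peritoneal macrophages, 2 to 9 for peritoneal against islet macrophages on normal diet, and 0 to 1 for the refeeding interaction, the last chosen after seeing the data. With a replicate block, refeeding called 0 members. Of the 93 population calls, 88 were kept with the replicate block, 87 with voom, 92 with RLE scaling, 81 in refed libraries and 71 without a count filter. Titles number fasted libraries of different populations alike, and whether these share a mouse is not stated in the labels. Of the named results so checked under alternatives, 300 of 312 in diet, 87 of 88 in refeeding, 220 of 240 in populations and 233 of 290 in normal-diet populations kept their side of the threshold. The causes were not tested. Atp6v0d2, Tfeb, Cd63 and Glb1 had libraries at or under 1 CPM, while the other 27 members had none.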

Other observations

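Lamp1 varied within groups together with a few other genes. Over the 110 refeeding libraries, after subtraction of each group's mean, Lamp1 correlated most with Rac1 (r = 0.863, rho = 0.852), followed by Fam49b (r = 0.756), Snx20 (r = 0.752), Zfand5 (r = 0.72) and Rnf187 (r = 0.697), of 16467 genes. In the 37 diet libraries these values were 0.907, 0.923, 0.732, 0.883 and 0.732. The other 30 members had a median r of 0.0241 with Lamp1, from -0.229 to 0.212, and of 0.0137 in the diet libraries. These points share libraries and depth, the correlations are a description, and their cause was not tested.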
